A study of Mus musculus with 4 samples.

Results

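The guanylate-binding proteins (GBPs) and the immunity-related GTPases (IRGs) were followed across 4 conditions of mouse macrophages. The genes asked for were Gbp2, Gbp3, Gbp5, Gbp7, Igtp, Irgm1, Irgm2, Iigp1, Tgtp1 and Ifi47, and every probe set annotated with one of these symbols alone was taken. This gave 11 probe sets of 8 genes (3 GBPs and 5 IRGs), out of 18194 genes with a probe set of their own. Gbp5 carried no probe set by that symbol in the annotation used, so only its start-site sequence and genome position were read. Tgtp1 shared its probe set with its near-identical copy Tgtp2, so its values are given but not counted. RAW264.7 is an established mouse macrophage line. Cells were grown for 4 days under normoxia (NC), under normoxia with IL6 (NC+IL6), under hypoxia (HC) or under hypoxia with IL6 (HC+IL6). The hypoxic cultures had 1% oxygen, and those with IL6, an inflammatory cytokine acting through STAT3, had 25 ng/ml of it. RNA of each condition was hybridized to 1 array, so no comparison below has a replicate check and no p-value is given.

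GBPs and IRGs are GTPases that macrophages make in response to interferons, above all IFN-γ. They gather on the vacuoles of intracellular parasites and bacteria and help to break them open. Among the IRGs, Irgm1, Irgm2 and Igtp (also called Irgm3) are regulators that sit on the cell's own membranes and keep the effectors inactive there, whereas Iigp1, Tgtp1 and Ifi47 are counted as effectors that load onto the vacuole. Interferons switch such genes on through short DNA elements near their starts. The interferon-stimulated response element (ISRE) is read by STAT and IRF complexes, and the gamma-activated sequence (GAS) is read by STAT dimers.

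The sequence before the start site is shown for Igtp, Irgm2, Irgm1 and Ifi47, which were measurable on every array, for Gbp7, the one GBP called below, and for Tgtp1, which shares an arrangement of elements with Igtp and Irgm2. Each run is the last 130 bases before the annotated start in RefSeq, build GRCm38.p6, written 5′ to 3′ on the gene's own strand. Capitals mark matches to GAAANNGAAA (ISRE-type) or TTCNNNGAA (GAS-type), searched on both strands; on the other strand the ISRE-type letters read TTTC, 2 bases and TTTC. Igtp lies at chr11:58199426-58199555 on the plus strand, Irgm2 at chr11:58214847-58214976 on the plus strand, Tgtp1 at chr11:48992247-48992376 on the minus strand, Irgm1 at chr11:48871421-48871550 on the minus strand Ifi47 at chr11:49076457-49076586 on the plus strand and Gbp7 at chr3:142530206-142530335 on the plus strand. Ifi47 held no match, so its run has no capitals.
Igtp: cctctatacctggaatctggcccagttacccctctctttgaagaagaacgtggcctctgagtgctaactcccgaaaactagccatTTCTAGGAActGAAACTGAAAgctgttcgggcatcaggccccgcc
Irgm2: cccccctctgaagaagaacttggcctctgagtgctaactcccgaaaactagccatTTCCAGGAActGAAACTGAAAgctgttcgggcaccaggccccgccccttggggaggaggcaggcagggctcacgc
Tgtp1: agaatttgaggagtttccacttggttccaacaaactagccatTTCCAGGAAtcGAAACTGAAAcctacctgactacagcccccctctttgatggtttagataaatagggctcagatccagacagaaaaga
Irgm1: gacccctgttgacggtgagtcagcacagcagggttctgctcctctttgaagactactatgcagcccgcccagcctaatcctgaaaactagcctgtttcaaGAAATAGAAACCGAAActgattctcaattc
Ifi47: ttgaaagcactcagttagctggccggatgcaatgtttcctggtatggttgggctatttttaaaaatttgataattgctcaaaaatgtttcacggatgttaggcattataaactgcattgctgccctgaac
Gbp7: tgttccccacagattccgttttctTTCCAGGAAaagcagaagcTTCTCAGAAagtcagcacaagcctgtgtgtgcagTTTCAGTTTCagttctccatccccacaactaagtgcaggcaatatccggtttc

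In Igtp, Irgm2 and Tgtp1 a GAS-type match was followed by 2 bases and then an ISRE-type match. This arrangement, noticed after the sequences were read, occurred in 5 of 32851 start-site windows of the mouse annotation (0.0152%). Each window ran from 250 bases before the start to 50 bases from it, and positions count back from -1, the base just before the start. Irgm1 held a pair of overlapping ISRE-type matches, at -30 to -21 and at -24 to -15, and no GAS-type match. Gbp7 held GAS-type matches at -106 and -87 and an ISRE-type match at -53 to -44. Over the 9 family genes whose windows were read, all but Iigp1, ISRE-type letters stood in 8 and in 3.44% of all windows, and GAS-type letters stood in 5 and in 8.30% of all windows. Both kinds stood in 5 of the 9 genes and in 0.454% of all windows. The Ifi47 window held neither. The core letters of the hypoxia response element, ACGTG or GCGTG, stood in 2 of the 9 (Igtp and Irgm2) and in 43.8% of all windows. The windows of Igtp and Irgm2 aligned along most of their length, with 244 identical bases (92.1% of those aligned). A match is a description of the letters and not a measured binding site, and the absence of a match holds for these windows alone.

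**Figure D1:**
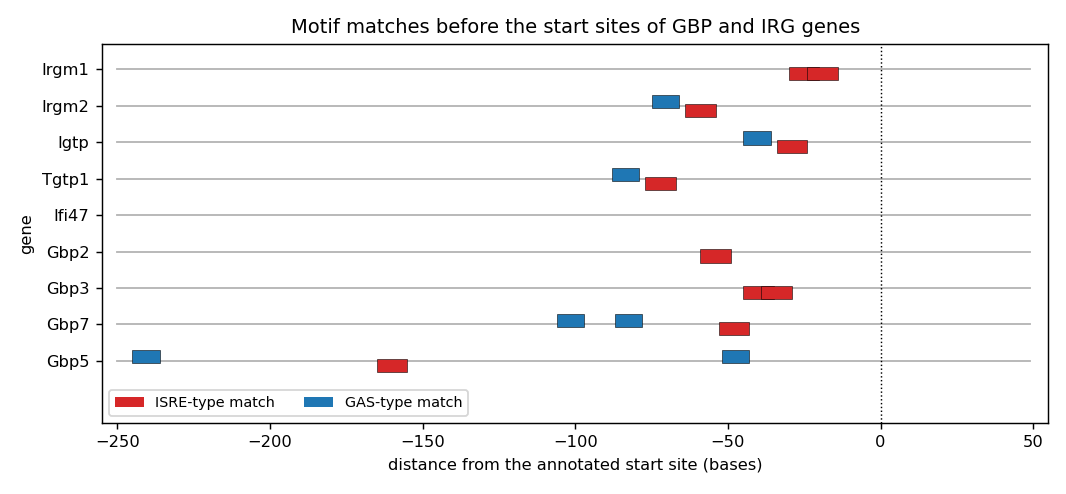
Each grey line is the window of 1 gene, by distance in bases from the annotated start (dotted line), and the bars mark ISRE-type (red) and GAS-type (blue) matches on either strand. For Gbp3, the window of 1 of its annotated starts is drawn. In 7 of the 8 genes with an ISRE-type match it lies within the last 77 bases before the start, and Ifi47 has no bar.

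On the arrays, values are log2 signals of the authors. A probe set was read as above background when it passed its array's floor, which 95% of the probe sets of a background list (99 probe sets of 61 genes that other tissues use) did not exceed. The floors were 6.72 (NC), 6.74 (NC+IL6), 6.89 (HC) and 6.99 (HC+IL6) on the log2 scale. A fold is given only where the brighter array was above its floor, and it reads "at least" where the dimmer array was below its own floor and was set to it. A gene was called higher or lower at 2-fold. Genes of several probe sets are represented by the brightest on average. All 10 macrophage markers were above the floor on all 4 arrays, and of 20 markers of other cell types Epcam alone passed, on the NC array. The summed signal of those 20 was 634.3 (NC), 559.3 (NC+IL6), 568.9 (HC) and 761.2 (HC+IL6). The ratio of the 3′ to the 5′ probe set of Actb, a sign of RNA integrity, was 1.54 (NC), 1.41 (NC+IL6), 1.73 (HC) and 1.62 (HC+IL6). The same ratio of Gapdh was 0.93 (NC), 0.93 (NC+IL6), 0.87 (HC) and 0.88 (HC+IL6). Under hypoxia the first was thus higher and the second lower, and their part in the results below was not tested.

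Irgm1, Irgm2, Igtp and Ifi47 were above the floor on all 4 arrays. Irgm1, which protects the cell's own membranes and supports autophagy, had a log2 signal of 9.82 (NC), 11.19 (NC+IL6), 9.04 (HC) and 9.32 (HC+IL6). NC+IL6 was thus its highest array and HC its lowest. In bulk RNA such as this, fewer cells making a transcript and less transcript in each cell cannot be told apart. Irgm2, a regulator found at the Golgi, read 8.83 (NC), 10.07 (NC+IL6), 7.75 (HC) and 8.22 (HC+IL6), in the same order. Igtp, the regulator of the endoplasmic reticulum and lipid droplets, read 8.88 (NC), 10.22 (NC+IL6), 7.71 (HC) and 9.21 (HC+IL6). Here HC was again lowest and HC+IL6 came second. Ifi47, an effector IRG, read 8.67 (NC), 10.60 (NC+IL6), 8.81 (HC) and 9.46 (HC+IL6), so that both arrays without IL6 were alike and low.

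Gbp7, Gbp3 and Iigp1 passed the floor on the NC+IL6 array alone. Gbp7, a GBP that helps deliver oxidase to vacuoles, read 6.02 (NC), 7.73 (NC+IL6), 6.0 (HC) and 6.06 (HC+IL6). Its dimmer probe set read 2.79 (NC), 7.04 (NC+IL6), 5.91 (HC) and 5.61 (HC+IL6), and also passed on NC+IL6 alone. The 2 Gbp7 probe sets disagreed on HC over NC, at log2 ratios of -0.02 and 3.12, where both arrays were under the floor. Gbp3 read 5.29 (NC), 7.48 (NC+IL6), 4.72 (HC) and 5.41 (HC+IL6). Iigp1, the best studied effector of the vacuole, read 5.85 (NC), 6.74 (NC+IL6), 5.27 (HC) and 6.10 (HC+IL6). It passed the NC+IL6 floor by less than 0.01 on the log2 scale, so its level was barely distinguishable from background. The dimmer Iigp1 probe set, between 3.58 and 5.53, was under the floor throughout, and it too disagreed on HC over NC, at 1.91 against -0.58.

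Gbp2, a GBP that coats parasite vacuoles, never passed the floor. Its brighter probe set read 3.99 (NC), 6.44 (NC+IL6), 2.26 (HC) and 1.86 (HC+IL6), and its dimmer one 2.03, 5.84, 4.53 and 0 in the same order. The probe set shared by Tgtp1 and Tgtp2, effectors of the vacuole, read 5.50 (NC), 6.39 (NC+IL6), 4.55 (HC) and 5.56 (HC+IL6), under the floor on every array. For both, NC+IL6 was again the brightest array, but no fold is given. The Gbp2 probe sets disagreed in sign on HC over NC, at -1.73 and 2.50. The dimmer Gbp2 probe set carries the _x suffix that the array's maker gives to probes that may match other transcripts. In all, 7 of the 8 genes and 8 of the 11 probe sets passed the floor on at least 1 array, against 52.5% of all genes. On every array 4 of the 8 genes passed, against 8417 of all 18194 genes, which is a similar share.

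**Figure D2:**
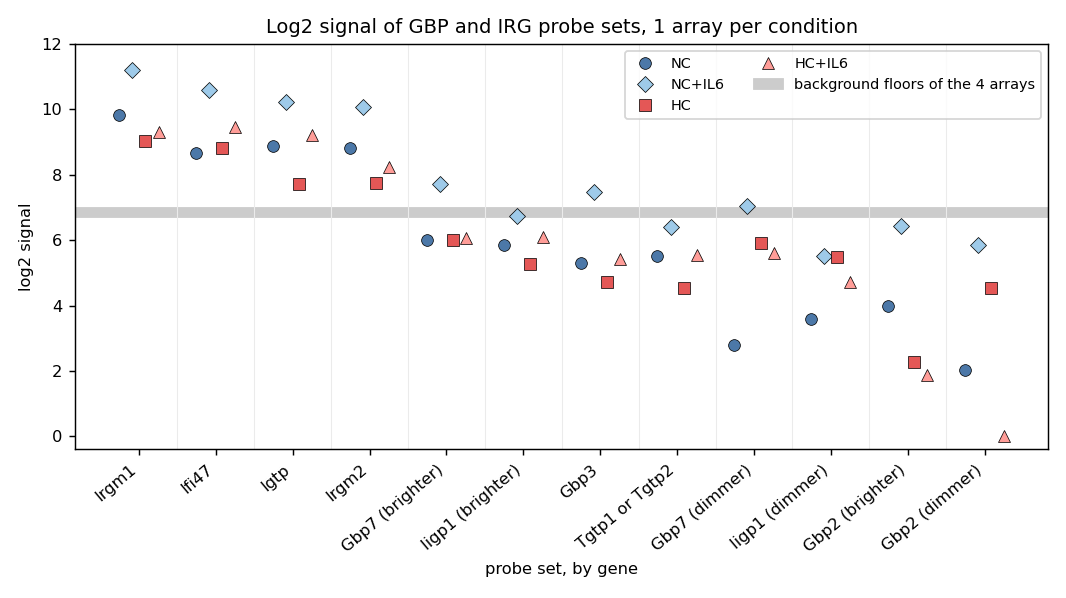
Log2 signal (vertical axis) of each probe set, ordered by its mean over the arrays, with 1 marker for each of the 4 arrays and a grey band spanning the background floors, 6.72 to 6.99. NC+IL6 (diamonds) is the highest array for every probe set, and Irgm1, Ifi47, Igtp and Irgm2 are the 4 that lie above the band on all arrays.

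By the RefSeq annotation of GRCm38.p6, the GBPs lay on chromosome 3 and the IRGs other than Iigp1 on chromosome 11. Gbp5, Gbp7, Gbp3 and Gbp2 lay side by side at chr3:142496934-142522344, chr3:142530336-142550151, chr3:142560016-142573213 and chr3:142620663-142638008. Among the IRGs, Irgm1 lay at chr11:48865245-48871420, Tgtp1 at chr11:48985329-48992246 and Ifi47 at chr11:49076587-49096987, whereas Igtp and Irgm2 lay further on, at chr11:58199556-58207592 and chr11:58214977-58222783.

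How far a level moved was set against the spread of log2 ratios between probe sets of the same gene, since no replicate array exists. It was pooled over the genes with several probe sets above the floor on both arrays, 3681 to 3765 per comparison. Irgm1, Irgm2, Igtp and Ifi47 have a single probe set each and did not enter it. This SD ranged from 0.28 to 0.34 over the 4 comparisons and holds disagreement between probes, not between cultures. By it, Irgm1 and Irgm2 shared the order NC+IL6, NC, HC+IL6 and HC. For Irgm1 the lowest pair, HC+IL6 and HC, differed by 0.29, within the SD of 0.31, whereas for Irgm2 they differed by 0.47. For Igtp the order was NC+IL6, HC+IL6, NC and HC, with HC+IL6 above NC by 0.33 against an SD of 0.31. For Ifi47 it was NC+IL6, HC+IL6, HC and NC, and the lowest pair differed by 0.14, within the SD of 0.34.

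The first comparison asked what hypoxia did without IL6. Igtp was 2.25-fold lower and Irgm2 2.11-fold lower in HC than in NC, with log2 ratios of -1.17 and -1.08. Irgm1 was 1.72-fold lower, short of the rule, at -0.79. Ifi47 was level at 0.14, or 1.10-fold higher, and after quantile normalization its ratio was 0.00. Thus 2 of the 4 genes that could be counted were 2-fold lower, against 1.08% of the 9278 genes counted, and 0 were 2-fold higher, against 3.75%. Igtp ranked 52nd and Irgm2 70th from the lowest ratio of the 9278. The median ratio of the 4 was -0.93, against 0.04 over all genes counted. The scaling bears on the background. The share of 2-fold calls over all genes that were higher was 77.7%, but 58.2% after quantile normalization and 61.9% after cyclic loess. Irgm2 at -1.08 stood near the limit, and adding the background to every signal brought it to -0.99 and ended its call. A floor at the 99th percentile of the background list left 0 genes called.

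With IL6 present, the 4 IRGs measured on all arrays were 2-fold lower under hypoxia. Against NC+IL6, Irgm1 was 3.65-fold lower in HC+IL6 and Irgm2 3.6-fold lower, at -1.87 and -1.85 on the log2 scale. Ifi47 was 2.20-fold lower at -1.14 and Igtp 2.02-fold lower at -1.01. Gbp7 was at least 1.67-fold lower and Gbp3 at least 1.40-fold lower, as HC+IL6 was under the floor, and Iigp1 could not be given a bound above 1. Thus 4 of 7 genes were called lower, against 1.35% of 9239, and 0 higher, against 2.80%. Irgm1 and Irgm2 ranked 19th and 20th from the lowest of the 9239 ratios, Ifi47 76th and Igtp 112th. With bounded genes at their bound, the median of the 7 was -1.01, against 0.02 over all genes counted. Gbp7, Gbp3 and Iigp1 entered the count through NC+IL6, the brighter array of this comparison and of the next, so their signs were set by the filter. Over all genes, 67.4% of the 2-fold calls were higher, and 51.9% after quantile normalization or cyclic loess. The call of Igtp, just past 2-fold, ended when the background was added to every signal, at -0.99.

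**Figure D3:**
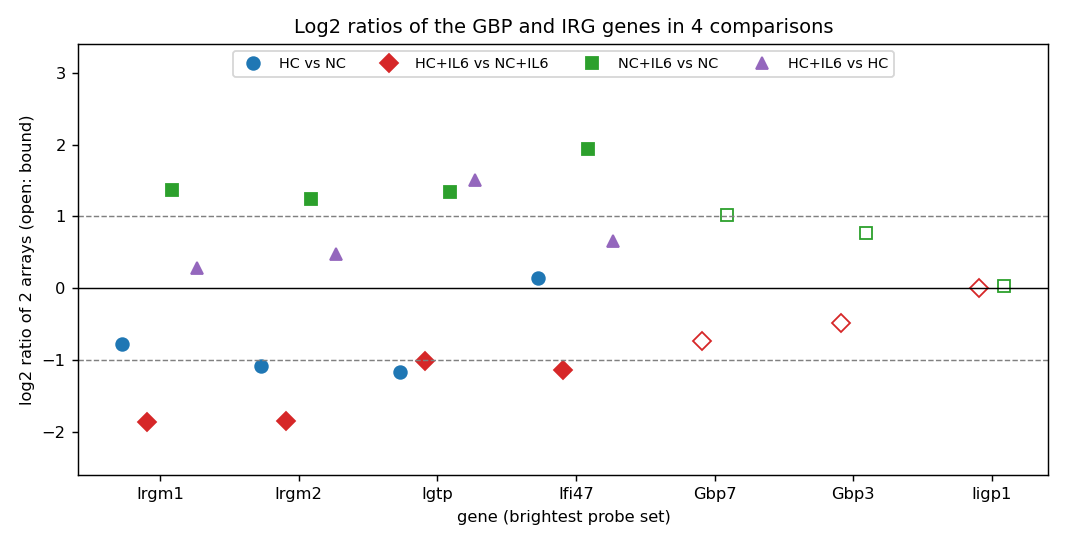
Log2 ratio (vertical axis) of the genes counted in each of the 4 comparisons, from 1 array against 1. Dashed lines mark 2-fold, open markers are bounds with 1 array set to its floor, and no marker is drawn where both arrays were under it. For HC+IL6 over NC+IL6 (diamonds), Irgm1 and Irgm2 lie at -1.87 and -1.85 and Ifi47 and Igtp at -1.14 and -1.01.

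Under normoxia, the same 4 IRGs and Gbp7 were 2-fold higher with IL6. Ifi47 was 3.82-fold higher in NC+IL6 than in NC, Irgm1 2.58-fold, Igtp 2.53-fold and Irgm2 2.37-fold, with log2 ratios between 1.25 and 1.93. Gbp7 was at least 2.02-fold higher and Gbp3 at least 1.70-fold higher. This made 5 of 7 genes 2-fold higher, against 3.52% of 9254, and 0 lower, against 1.04%. Gbp7, Gbp3 and Iigp1 were counted through NC+IL6 alone, so the filter set their signs and none of them could be lower. The 4 IRGs above the floor on both arrays were all called higher. Ifi47 ranked 72nd from the highest of the 9254 ratios, Irgm1 161st, Igtp 170th and Irgm2 204th. With bounded genes at their bound the median was 1.25, against -0.03 over all genes counted. Gbp7 was called by a narrow margin, and its call ended with a floor at a signal of 200 or with the mean of its probe sets. A floor at the 99th percentile of the background list ended the calls of Gbp7, Igtp and Irgm2 and left 2.

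Under hypoxia, 1 IRG passed the rule with IL6. Against HC, Igtp was 2.83-fold higher in HC+IL6 at 1.5 on the log2 scale. Ifi47 was 1.57-fold higher at 0.65, Irgm2 1.39-fold at 0.47 and Irgm1 1.22-fold at 0.29, the last within the SD of 0.31. Thus 1 of 4 countable genes was higher, against 2.37% of 9285, and 0 were lower, against 1.79%. Igtp ranked 77th from the highest ratio. The GBPs and Iigp1 were under the floor on both arrays. The median of the 4 was 0.56, against -0.03 over all genes counted. A floor at the 99th percentile of the background list ended the call of Igtp.

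The difference between both hypoxia ratios, with IL6 minus without, was -1.28 for Ifi47, -1.08 for Irgm1 and -0.77 for Irgm2. For Igtp it was 0.16, less than the SD between probe sets in either hypoxia comparison. For the other members it has no value, as they were under the floor on 3 or more arrays. Medians taken over the 7 genes without bounds were -0.58, -1.67, 1.37 and 0.65 in the 4 comparisons above, but the first and second of these are the values of Iigp1 and Gbp7 with signals under the floor. With 1 array for each condition these differences were not tested, and both ratios share no array. Set against NC, the HC+IL6 level was 0.50 lower for Irgm1 and 0.60 lower for Irgm2 on the log2 scale, but 0.33 higher for Igtp and 0.80 higher for Ifi47. Irgm1 and Irgm2 thus stood below, and Igtp and Ifi47 above, their NC level when both treatments were given. Beside these ratios, the median signal of all probe sets was 5.90 and 5.86 under hypoxia without and with IL6, against 5.64 and 5.55 under normoxia, and its part in the ratios was not tested.

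**Figure D4:**
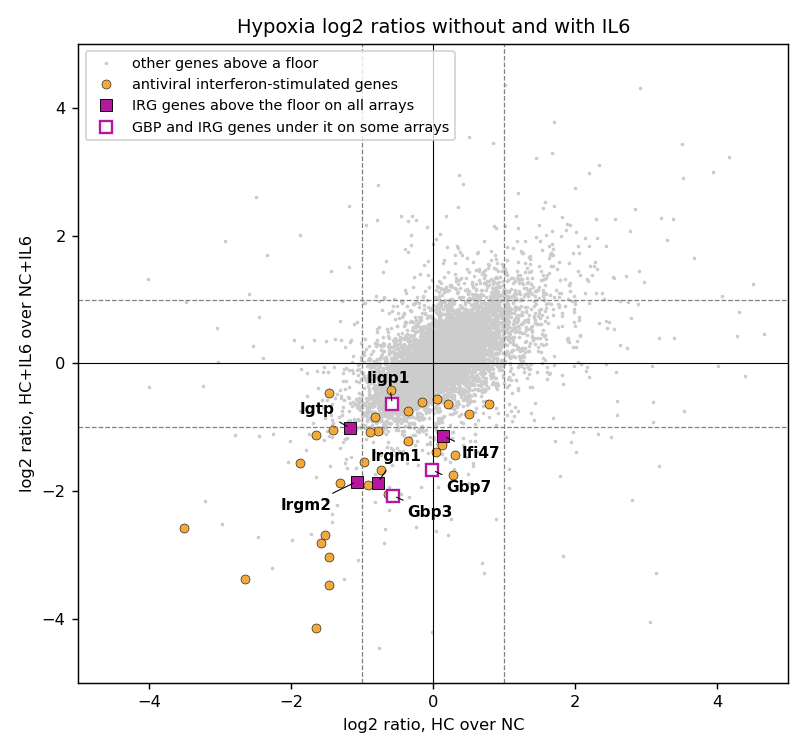
Each point is 1 of 9549 genes above a floor on at least 1 array, by its log2 ratio of HC over NC (horizontal) and of HC+IL6 over NC+IL6 (vertical), with dashed lines at 2-fold. Of these, 2 fall outside the axes. Filled squares are the 4 IRG genes above the floor on all arrays, between -1.01 and -1.87 on the vertical axis. Open squares rest on signals under the floor and have no settled place.

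Further genes of both families were read from a list of 18, of which 5 had a probe set of their own. Irgq, an IRG relative thought not to bind GTP, was the one above the floor, at 8.31 (NC), 8.44 (NC+IL6), 7.81 (HC) and 7.99 (HC+IL6). Its hypoxia ratios were -0.49 and -0.45 and its IL6 ratios 0.13 and 0.17. Both hypoxia ratios were beyond the SD between probe sets and short of 2-fold, and both IL6 ratios were within it. Gbp2b, Gbp6, Gbp8 and Irgc1 were under the floor on all arrays.

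The family's values were set beside antiviral interferon-stimulated genes, which carry ISREs and answer type I interferon. Of 35 listed, 32 were found and 31 passed a floor. In HC against NC 5 of 27 were lower, against 1.08% of all genes counted, and 0 higher, against 3.75%. In HC+IL6 against NC+IL6 19 of 31 were lower, against 1.35%, and 0 higher, against 2.80%. In NC+IL6 against NC 24 of 31 were higher, against 3.52%, and 0 lower, against 1.04%. In HC+IL6 against HC 8 of 24 were higher, against 2.37%, and 0 lower, against 1.79%. Ifit3, Oasl2, Ddx60 and Mx1 passed a floor on NC+IL6 alone, so the filter set their signs in both comparisons with that array. The GBP and IRG counts in these comparisons, as given above, were 2 of 4, 4 of 7, 5 of 7 and 1 of 4. With genes at their bound, the median ratios were -0.36, -1.22, 1.55 and 0.87 for the antiviral list. For the GBPs and IRGs they were -0.93, -1.01, 1.25 and 0.56. Without bounds they were -0.82, -1.38, 1.71 and 0.92 against -0.58, -1.67, 1.37 and 0.65. The order of the lists under hypoxia thus turned with the handling of signals under the floor. Of the 4 with the highest mean signal, Ifi27l2a had a hypoxia ratio of -0.42 when IL6 was present, short of 2-fold, and Ifi35, Oas1a and Rtp4 had -1.06, -1.12 and -1.55. The lists share arrays and were not tested against each other.

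By Euclidean distance over the 4 arrays, after centring each gene on its mean, the 10 genes nearest to the mean pattern of the 7 members were Tor3a (0.17), Bst2 (0.20), Phf11d, Rnf213, Parp14, Helz2, Lgals3bp, Ifi35, Ddx58 and Oasl1 (0.40). The members themselves lay between 0.41 (Irgm1) and 0.62 (Igtp and Iigp1) from their mean, to which Gbp7, Gbp3 and Iigp1 gave signals mostly under the floor. Tor3a, a torsin ATPase, read 9.65 (NC), 10.97 (NC+IL6), 9.08 (HC) and 9.62 (HC+IL6). Bst2, which tethers budding viruses, read 11.25, 12.87, 10.51 and 11.19 in that order. Distances over 4 arrays describe likeness in these libraries.

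The chain from interferon to these genes was read from further lists. Of 10 interferon ligands and receptors, Ifnar1, Ifnar2, Ifngr1, Ifngr2 and Il10rb were above the floor, and 0 of these 5 passed 2-fold in any comparison. Over all genes counted, 1.04% to 3.75% were called in a given direction, so 0 of 5 is no result about these genes. Among 13 JAK, STAT and IRF genes above a floor, Irf7, itself interferon-induced, was lower under hypoxia at -1.70 without and -1.14 with IL6. It was the only gene of this list called under hypoxia, of 12 counted without IL6 and 13 with it. Over all genes counted, 1.08% and 1.35% were called lower. Short of 2-fold, Irf9 was lower under hypoxia at -0.86 without and -0.90 with IL6, and Jak2 was higher at 0.69 and 0.82. Negative hypoxia ratios numbered 4 of the 12 and 7 of the 13. With genes at their bound, the list medians were 0.20 and -0.02. Irf7, Stat3 and Nlrc5 were higher with IL6 at 2.03, 1.09 and 1.44 under normoxia, and at 2.58, 1.45 and 1.47 under hypoxia. These were 3 of 13 and 3 of 12 counted, against 3.52% and 2.37% of all genes. Of 9 inhibitors of interferon signaling, Usp18, a brake on the interferon receptor, was lower under hypoxia at -2.28 without and -3.21 with IL6. It was the only gene of this list called under hypoxia, of 9 and 8 counted, against 1.08% and 1.35% called lower over all genes. The list medians were -0.08 and 0.15. Socs3, the brake induced by STAT3, was 2.23 higher with IL6 under normoxia and 2.29 higher under hypoxia. Usp18 was 1.94 and 1.02 higher. These were 2 of 8 and 2 of 9 counted.

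Partners of the GTPases were read next. Of 13 autophagy conjugation genes, whose products direct IRGs and GBPs to vacuoles, Map1lc3a was higher in HC at 1.43 and Sqstm1 lower in HC+IL6 at -1.11, with list medians of 0.16 in both hypoxia comparisons. Of 9 ubiquitin and vacuole coat partners above a floor, Rnf213 and Ube2l6 were lower under hypoxia when IL6 was present, at -1.10 and -1.0. Of 8 inflammasome and caspase genes above a floor, Casp4, the sensor of bacterial lipopolysaccharide downstream of GBPs, was higher in HC at 1.22. With IL6 present its hypoxia ratio was 0.22, and its IL6 ratio was 2.31 under normoxia and 1.32 under hypoxia. Zbp1, a sensor of Z-form nucleic acid, was lower under hypoxia when IL6 was present, at -2.51. Among 15 other IFN-γ response genes above a floor, Cxcl10, Acod1 and Psmb10 were lower under hypoxia with IL6, at -2.81, -1.88 and -1.01. Cd74, the invariant chain of antigen presentation, was higher, at 1.87. Over all genes counted, 1.08% were lower and 3.75% higher in HC against NC, and 1.35% and 2.80% in HC+IL6 against NC+IL6. A single call among so few genes was not read as a result about its list. As a check on the treatment, 11 of 20 HIF targets were higher in HC than in NC, against 3.75% of all genes counted. In HC+IL6 against NC+IL6 8 of 20 were higher, against 2.80%. In NC+IL6 against NC 8 of 18 counted were also higher, against 3.52%, so a rise of this list was not particular to hypoxia.

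**Figure D5:**
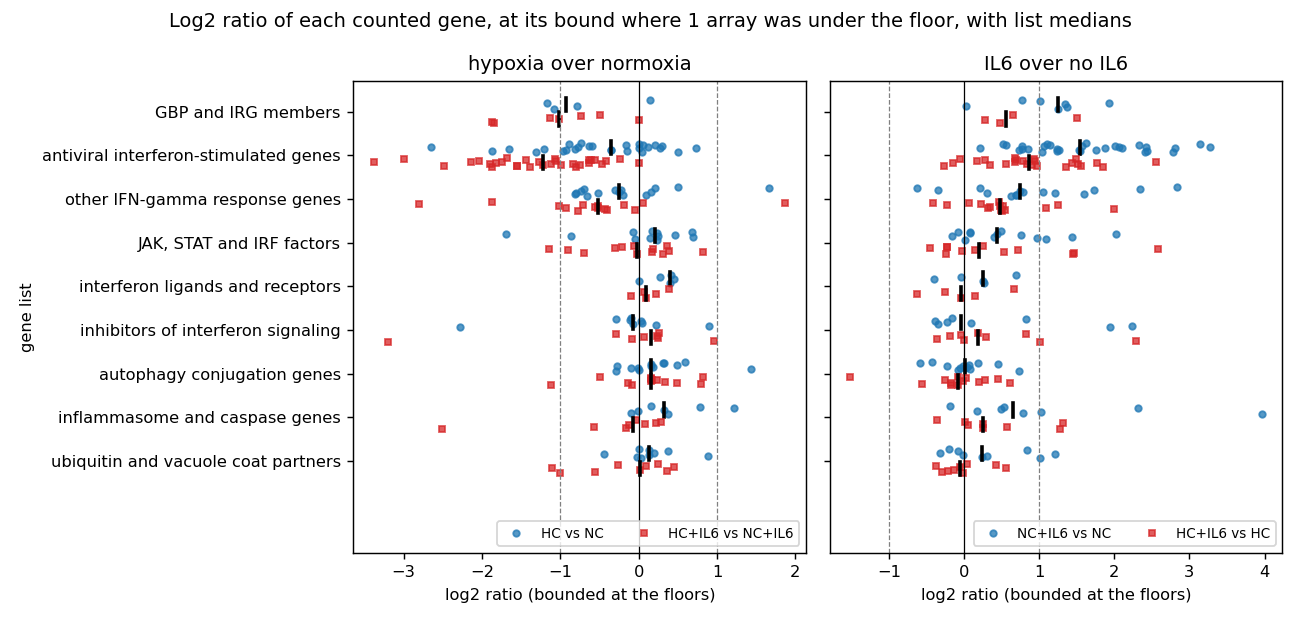
Each point is the log2 ratio (horizontal axis) of 1 gene with at least 1 array of the comparison above the floor, set to its bound where the other was under it, by gene list, for hypoxia over normoxia (left) and IL6 over no IL6 (right), and black bars are list medians. The GBP and IRG genes have medians of -0.93 and -1.01 under hypoxia without and with IL6, and of 1.25 and 0.56 for IL6 under normoxia and hypoxia. Gbp7, Gbp3 and Iigp1 enter the medians of -1.01 and 1.25 through NC+IL6 alone, so the filter set their signs.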

How the data were processed

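RNA of RAW264.7 cells in 4 conditions was measured on 1 Affymetrix mouse array each. The authors summarized 45101 probe sets with MAS5 and deposited log2 signals. Each array had been scaled to a trimmed mean of 500 (2% cut from both tails), as the values show. Neither the MAS5 version nor the oxygen level of normoxia is given in the sources read. A log2 value of 0 means a signal no higher than 1. Of the probe sets, 34958 carry 1 gene symbol in the annotation used, 932 carry several and 9211 are not listed.

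From the deposited log2 values, ratios, floors and counts were computed with Python 3.11.15, numpy 2.4.6 and pandas 2.3.3, and quantile and cyclic loess normalization with limma 3.58.1 in R 4.3.3. The counting script was checked on simulated data. Names were drawn from all members, listed relatives above the floor and the 10 nearest patterns. From each other list they were drawn from up to 4 brightest genes and those past 2-fold under hypoxia. Only part of the genes under this rule is named. For the JAK, STAT and IRF list, the autophagy list and the inflammasome and caspase list, the brightest were left out and those called were named. Of the brightest inhibitors of interferon signaling, Socs3 alone was named, beside the called Usp18. From the ubiquitin and vacuole coat list and the other IFN-γ response genes, only genes called under hypoxia were named. Those named outside the rule (Stat3, Nlrc5, Irf9, Jak2, Ifngr1, Epcam, Gbp2b, Gbp6, Gbp8 and Irgc1) were chosen after their values were seen. Members and lists were chosen with earlier results of these data known. Alternatives changed the scaling, the floor, the added background and the probe set rule. The number of arrays limits the precision.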

Additional observations from a re-analysis of the deposited data

Results flagged for a closer look

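Ifi47 had hypoxia ratios of opposite sign without and with IL6. The log2 ratio was 0.14 for HC over NC and -1.14 for HC+IL6 over NC+IL6, a difference of -1.28. Each ratio rests on 1 array against 1, so the difference was not tested. Without IL6 the ratio was within the SD of 0.34 between probe sets of the same gene, and it was 0.05 after cyclic loess and 0.00 after quantile normalization.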

How the results depend on the processing

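Medians here are over the family genes above a floor in each setting, without bounds. No count or median ratio of the GBP and IRG genes changed direction under the alternatives run. Under the alternatives, 109 such values stayed within 1.5 times or 1 SD of the value reported and 8 did not. The 109 include counts of 0 in the opposite direction that stayed 0. A changed floor alters which genes are counted or enter a median, but not the unbounded ratio of a gene. For HC against NC, the count of lower genes was 1 with the median background added to every signal. For HC+IL6 against NC+IL6, the lower count was 7 with the floor at the median of the background genes and 7 with no floor. For NC+IL6 against NC, the median ratio was 1.65 with the mean over the probe sets of a gene. Floors at a signal of 200 and at the 99th percentile of the background genes were chosen after seeing the data. The first changed no count or median beyond these limits, although Gbp7 lost its call. The second lies at 8.77 to 9.36 on the log2 scale, as a few genes of the background list are above the floor used in the report. With it the lower count of HC against NC was 0 with a median ratio of -0.93, and the higher counts were 2 for NC+IL6 against NC and 0 for HC+IL6 against HC. Adding the background moved the median of all genes to 0.16, 0.17, -0.14 and -0.10 in the 4 comparisons in the order of the report, against 0.05, 0.02, -0.03 and -0.03. With 1 array per condition no array could be left out. No paired analysis was possible because each condition has 1 array. Signals under the floor, which hold most GBP values, set the limit of these comparisons.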
